A study of Homo sapiens with 2 samples.

Results

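10 genes of the AP-1, EGR, KLF and MYC transcription factors were followed in RNA sequencing of the MDA-MB-231 line, human breast cancer cells of the triple-negative, mesenchymal type. They are the 4 FOS family genes FOS, FOSB, FOSL1 and FOSL2, the 3 JUN family genes JUN, JUNB and JUND, the zinc finger genes EGR1 and KLF6, and MYC. All 10 symbols were found, by Ensembl ID and a GRCh37 annotation, among the 63677 genes of the deposited count tables. The CCE library came from cells given 1 µg/mL of Carpesium cernuum extract (CCE), a plant extract, over 24 h, and the control library from cells labelled as control, whose vehicle the labels do not state. Each group has 1 library, so no difference below was checked against replicates and no p-value is given.

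AP-1 is a dimer of a FOS protein with a JUN protein, or of 2 JUN proteins, and binds short DNA elements in the promoters and enhancers of genes for growth, invasion and inflammation. FOS, FOSB, JUN, JUNB and EGR1 are classical immediate early genes: growth factor and stress kinases switch them on within minutes, partly through serum response factor (SRF) and its CArG box elements, and their mRNAs decay fast. FOSL1 (FRA-1) is the FOS protein best known from mesenchymal, triple-negative breast cancer cells. EGR1 and KLF6 bind GC-rich promoter elements, and MYC, with its partner MAX, binds E-box elements of genes for ribosomes, metabolism and proliferation.

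The CCE library held 34884501 counts on genes and the control library 5633569. After TMM scaling (a trimmed mean of gene ratios), 1 count was worth 0.0283 CPM, a unit of library-scaled counts, in the CCE library and 0.180 CPM in the control library. Ratios are CCE over control, and the 95% Clopper-Pearson intervals given with them hold counting error alone. The 14424 genes with a mean of 1 CPM or more counted as measured, and their median log2 ratio was 0.05. Of 7 markers of this cell line, one of them FOSL1, all were measured, with a summed level of 4339 CPM in the CCE and 6886 CPM in the control library. They had a median log2 ratio of -0.32, and 3 were at least 1.5-fold lower, among them the intermediate filament gene VIM (63645 and 20788 counts, log2 ratio -1.05). Of 10 luminal breast markers, summing to 460.7 and 603.6 CPM, 6 were measured, with a median log2 ratio of -0.35. The keratin genes KRT18 and KRT8 were the most abundant of them, at 167.7 and 128.6 CPM in the CCE and 204.1 and 174.8 CPM in the control library. KRT19 had 103 CPM in the CCE and 157.4 CPM in the control library, and ERBB2 51.8 and 55.4 CPM. The luminal regulators ESR1 and FOXA1 were at 0 counts in both libraries, which allows up to 0.0849 CPM in the CCE and 0.540 CPM in the control library. Markers of blood, endothelium and stroma (11 of 12 matched) summed to 9.48 CPM in the CCE and 8.81 CPM in the control library, of which the globin gene HBB gave 8.49 and 7.37 CPM.

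In the treated cells the 10 genes differed in direction. EGR1 was 2.36-fold higher in the CCE library (95% interval 1.84 to 3.07). JUN, JUND and KLF6 were lower, at 0.624-, 0.636- and 0.617-fold the control level. MYC and JUNB were higher by less than 1.5-fold, FOSL1 was lower by less than 1.5-fold, and the intervals of FOSL2, FOS and FOSB held equality.

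Of the 9 measured members, 1 was at least 2-fold higher with an interval excluding 1, where 4.36% of all measured genes were, and 0 were at least 2-fold lower, where 4.92% were. At 1.5-fold, 1 of 9 was higher (12.1% of all measured genes) and 3 of 9 were lower (11.3%). By the authors' FPKM + 1, of 8 members (JUNB is listed at 0 there), 1 lay 1.5-fold or more above the control (21.2% of all measured genes). Below it by as much lay 4 (24.1%). Both shares keep the measured genes at 0 FPKM in both libraries, whereas JUNB was left out of the 8 for that reason. At 2-fold, with a pseudocount of 1 or 0.1, 3 lay below the control and 0 above it. The share of all measured genes was not computed there, so the 3 are no result about the members. With count ratios centred on transcript GC content, 2 of the 9 in place of 3 were at least 1.5-fold lower, since JUND no longer was. The share of all measured genes was not computed for centred ratios either. The median log2 ratio of the 9 was -0.09, with 4 ratios above 0 and 5 below. FOSB, at a mean below 1 CPM, stood outside these counts.

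**Figure D1:**
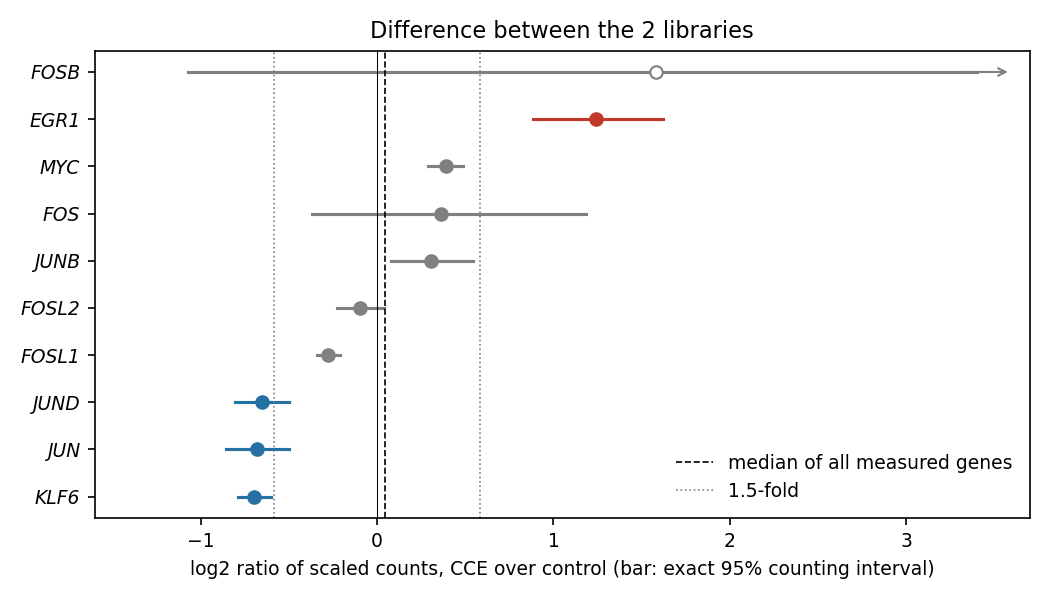
Ratio of TMM-scaled counts on the log2 scale, CCE over control, for the 10 genes (points) with exact 95% counting intervals (bars); red marks a gene higher and blue a gene lower by 1.5-fold or more with an interval excluding 0, and the open point is below the count filter. EGR1 stands at 1.24, and JUN, JUND and KLF6 lie together between -0.70 and -0.65; the arrow marks an interval of FOSB that runs past the axis.

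Per kilobase of exon, FOSL1 was the most abundant of the 10 genes in both libraries. Its level was 186.7 CPM per kb in the CCE library (exact Poisson interval 183.5 to 190.1) and 226.1 CPM per kb in the control library (217.1 to 235.4). MYC was second in the CCE library, at 35.3 CPM per kb, ahead of JUND at 26.6. In the control library JUND was second, at 41.8 CPM per kb, followed by KLF6 at 32.9 and MYC at 26.9. FOS, at 1.23 CPM per kb in the CCE and 0.960 in the control library, and FOSB, at 0.0968 and 0.0324, were lowest in both. The neighbours JUNB and KLF6, and JUN and EGR1, had overlapping counting intervals in the CCE library, and JUNB and JUN, and JUN and FOSL2, in the control library. These levels rest on exon lengths of the GENCODE annotation, which may differ from those the authors counted on.

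**Figure D2:**
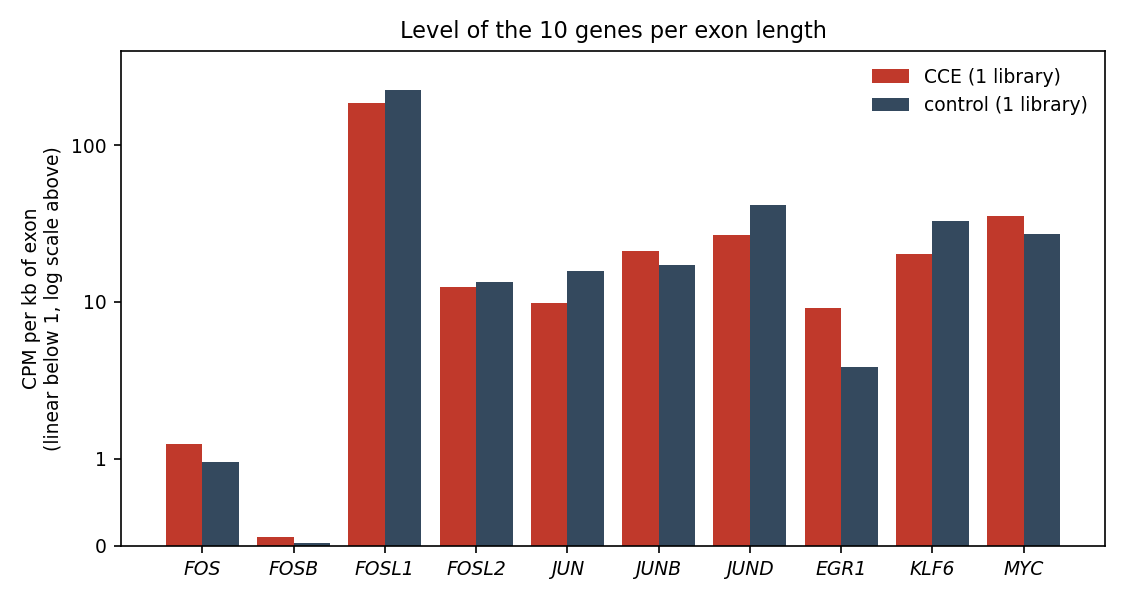
Level of each gene in CPM per kilobase of exon (linear below 1, log scale above) in the CCE library (red) and the control library (dark), 1 library each, with no error bars. FOSL1 is the tallest pair at 186.7 and 226.1, and EGR1, at 9.07 and 3.84, has the largest CCE over control ratio among the genes above 1.

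Among the FOS genes, FOSL1 (chromosome 11, 65659520 to 65668044, GRCh37, minus strand) had 12455 counts in the CCE library and 2372 in the control library, or 352.4 and 426.6 CPM. The CCE level was 0.826-fold the control level (0.791 to 0.864), a difference beyond counting error but under 1.5-fold. Its log2 ratio was -0.276 (-0.339 to -0.212). Relative to the median of genes of like transcript GC content it was -0.206, closer to equality and just outside that interval. FOSL1 made up 93.1% of the summed per-kb level of the FOS family in the CCE library and 94.0% in the control library.

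FOSL2, the gene of the related FRA-2 protein (chromosome 2, 28615315 to 28640184), had 3168 counts in the CCE and 532 in the control library, 89.6 and 95.7 CPM. Its ratio of 0.937 (0.854 to 1.03) did not exclude equality. The count of FOSL2 relative to FOSL1 was 0.254 in the CCE and 0.224 in the control library, a 1.13-fold difference (1.02 to 1.26). With each gene centred on the median of genes of like transcript GC content it was 1.08-fold (0.971 to 1.19), an interval that holds 1. The authors' FPKM gave FOSL2 to FOSL1 ratios of 0.124 in the CCE and 0.0534 in the control library, a 2.33-fold difference.

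FOS, which encodes the labile founding member of the family (chromosome 14, 75745529 to 75748933), had only 139 counts in the CCE and 17 in the control library, 3.93 and 3.06 CPM. Its ratio of 1.29 had an interval of 0.775 to 2.27, so a difference was not detectable at this depth. FOSB (chromosome 19, 45971253 to 45978437) had 19 counts in the CCE library and 1 in the control library. Its ratio of 2.99 had an interval of 0.475 to 124.2, which leaves its direction undetermined.

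The JUN genes differed in direction. JUN (chromosome 1, 59242517 to 59249720), the transforming member of the family, had 1262 counts in the CCE and 318 in the control library, 35.7 and 57.2 CPM. It was 0.624-fold (0.552 to 0.708, log2 ratio -0.68), and 89.3% of measured genes had a higher ratio. JUND (chromosome 19, 18390504 to 18392432), the member usually expressed steadily in resting cells, had 1810 counts in the CCE and 448 in the control library, 51.2 and 80.6 CPM. It was 0.636-fold (0.573 to 0.706, log2 ratio -0.65). JUNB (chromosome 19, 12902300 to 12904129), which can restrain JUN in dimers, had 1367 and 174 counts, 38.7 CPM in the CCE and 31.3 CPM in the control library. It was 1.24-fold higher (1.06 to 1.46). JUN and JUND were thus lower and JUNB slightly higher in the same cells.

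Transcript GC content moved with the ratios of all genes: the median log2 ratio was 0.18 in the decile of measured coding genes with the lowest GC content and -0.20 in the decile with the highest. JUNB (64.9% GC) and JUND (69.9% GC) belong to that highest decile. Relative to its median, JUND had a log2 difference of -0.45, which is less than 1.5-fold, and JUNB of 0.51. JUNB shares exon sequence with HOOK2 on the opposite strand (1097 CCE and 159 control counts), and with no strand setting of the counting given, reads in that overlap cannot be assigned with certainty.

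The balance within the family can be read without any library scaling. There was 1.08 JUNB count per JUN count in the CCE library and 0.547 in the control library, a 1.98-fold difference (1.61 to 2.43). JUNB relative to JUND stood at 0.755 in the CCE and 0.388 in the control library, a 1.94-fold difference (1.61 to 2.36). JUND relative to JUN was 1.43 in the CCE and 1.41 in the control library by counts, a 1.02-fold difference with a counting interval of 0.864 to 1.20. By FPKM the same ratio was 1.27 in the CCE and 2.39 in the control library, a 0.531-fold difference outside that interval, so counts and FPKM differ on this balance. Per kb, JUNB accounted for 36.7% of JUN family level in the CCE and 22.9% in the control library, JUN for 17.1% and 21.1%, and JUND for 46.1% and 56.0%. Of the 10 pairs compared within families, chosen after the values were seen, 4 had an interval that excluded 1. In each pair the gene with the higher ratio by counts was put first, so no count-based value can lie below 1. The JUNB pairs share that gene. The share of other pairs of measured genes with such an interval was not computed, so the 4 are no result about these families.

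**Figure D3:**
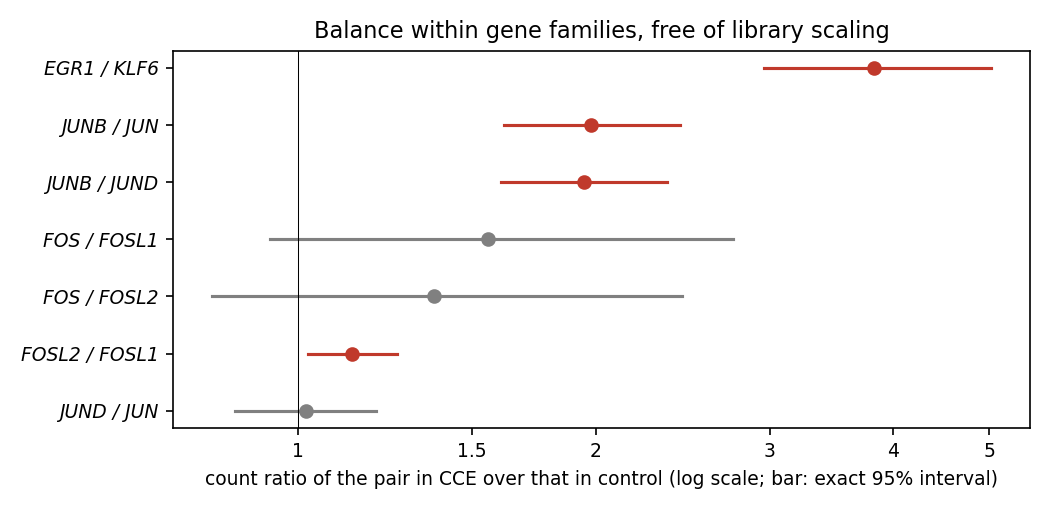
Count ratio of the first to the second gene of each pair in the CCE library, divided by the same ratio in the control library (log scale; bars are exact 95% intervals, red where they exclude 1); pairs with FOSB are not drawn. EGR1 over KLF6 stands at 3.83, both JUNB pairs near 1.9 to 2.0, and JUND over JUN at 1.02 (0.531 by FPKM). The gene with the higher ratio by counts is first in each pair, so no count-based value can lie below 1.

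The promoters of JUN and JUND are shown because they belong to the 2 lower genes of the family. Each line is the 250 bases before the start site, from RefSeq (GRCh38.p14), minus strand, 5′ to 3′. Capitals mark a TGACATCA element in JUN, the AP-1-like element through which JUN is known to control its own gene, and a cyclic AMP response element (CRE, TGACGTCA) in JUND.
JUN, chr1:58784048-58784297: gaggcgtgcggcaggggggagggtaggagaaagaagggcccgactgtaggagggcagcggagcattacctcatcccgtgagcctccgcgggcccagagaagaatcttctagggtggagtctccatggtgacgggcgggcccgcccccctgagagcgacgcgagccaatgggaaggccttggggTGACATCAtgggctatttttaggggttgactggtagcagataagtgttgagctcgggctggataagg
JUND, chr19:18281623-18281872: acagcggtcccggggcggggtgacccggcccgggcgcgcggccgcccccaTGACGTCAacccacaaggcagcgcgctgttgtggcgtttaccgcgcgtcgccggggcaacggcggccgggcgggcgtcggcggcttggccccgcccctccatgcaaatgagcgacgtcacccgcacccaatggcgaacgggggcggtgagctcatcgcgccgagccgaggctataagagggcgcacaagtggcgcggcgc
The TGACATCA element began 67 bases before the start in JUN and is held, on either strand, by 2.37% of the 35116 promoters in the RefSeq table. The CRE of JUND began 200 bases before the start, and 1.65% of promoters hold one. No consensus AP-1 site (TGACTCA or TGAGTCA, either strand, 4.20% of promoters) lay in these windows for any of the 8 members with a promoter in the table. FOSL1 and MYC were not matched there.

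By counts EGR1 differed most of the 9 measured genes. It encodes a zinc finger factor that is induced by growth factor and stress signals and lies on chromosome 5 from 137801168 to 137804992. EGR1 had 1006 counts in the CCE library and 67 in the control library, 28.5 and 12.1 CPM, a log2 ratio of 1.24 (0.88 to 1.62). At the control depth the CCE level would have given 158.3 counts in place of 67. Of measured genes, 2.80% had a higher ratio. The FPKM of EGR1, the length-scaled value the authors deposited, was 7.65 in the CCE and 3.80 in the control library. These values reach 2-fold as deposited. On the log2(FPKM + 1) scale the difference was 0.85, which is under 2-fold because of the added pseudocount. With its pair of values, the nearest of all measured protein-coding genes by distance in log2 CPM over the 2 libraries were ZNF354A (0.0185), RLF (0.0340) and ZNF189 (0.0449).

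KLF6 (chromosome 10, 3818188 to 3827473), a Krüppel-like factor described as a growth suppressor in several tumours, went the other way. It had 4411 counts in the CCE and 1124 in the control library, 124.8 and 202.1 CPM. The CCE level was 0.617-fold (0.578 to 0.660, log2 ratio -0.70), the lowest ratio among the 10 genes. In its transcript GC decile the median log2 ratio was 0.09, and relative to it KLF6 stood at -0.79. There were 0.228 EGR1 counts per KLF6 count in the CCE library and 0.0596 in the control library, a 3.83-fold difference (2.96 to 5.02) that was 8.64-fold by FPKM. The nearest genes to KLF6 in both levels were TNFRSF21 (0.0639), COTL1 (0.0682) and MTHFD1 (0.0731).

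The promoters of EGR1 and KLF6 are those of the highest and the lowest ratio among the 9 measured genes. They are given as above, EGR1 on the plus and KLF6 on the minus strand. Capitals mark 2 CArG boxes in EGR1, the SRF element, and in KLF6 a TGACATCA element, an E-box (CACGTG) and an EGR site (GCGTGGGCG or GCGGGGGCG), in that order.
EGR1, chr5:138465229-138465478: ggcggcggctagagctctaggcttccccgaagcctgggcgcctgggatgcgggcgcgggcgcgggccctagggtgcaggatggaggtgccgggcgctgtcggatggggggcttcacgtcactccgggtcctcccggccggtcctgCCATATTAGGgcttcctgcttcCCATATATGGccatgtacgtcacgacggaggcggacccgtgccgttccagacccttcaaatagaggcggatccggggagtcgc
KLF6, chr10:3785210-3785459: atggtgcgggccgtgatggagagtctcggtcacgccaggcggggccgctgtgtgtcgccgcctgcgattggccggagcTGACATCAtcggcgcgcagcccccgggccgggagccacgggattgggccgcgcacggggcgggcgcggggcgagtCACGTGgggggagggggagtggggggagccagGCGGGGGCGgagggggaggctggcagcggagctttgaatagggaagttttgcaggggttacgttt
The CArG boxes of EGR1 began 105 and 83 bases before the start, and 1.16% of all promoters hold one. In KLF6 the TGACATCA element began at 172, the E-box at 97 and the EGR site at 65 bases before the start. E-boxes were held by 6.34% and EGR sites by 5.37% of promoters. FOS, FOSB and JUNB had the TATAAA motif (10.7% of promoters) 33, 30 and 31 bases before the start. A match shows only that these letters are there, and the absence of one says nothing about binding outside the window.

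MYC (chromosome 8, 128747680 to 128755197) had 7617 counts in the CCE and 915 in the control library, 215.5 and 164.6 CPM. The CCE level was 1.31-fold higher (1.22 to 1.40), beyond counting error and under 1.5-fold. Of measured genes, 24.4% had a higher ratio. By the authors' FPKM it was 63.2 in the CCE and 56.0 in the control library. The antisense gene CASC11 shares exon sequence with MYC but held only 9 CCE and 4 control counts. The 3′ untranslated region of the canonical MYC transcript held 6 ATTTA motifs (3.01 per kb), the core of AU-rich decay elements.

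**Figure D4:**
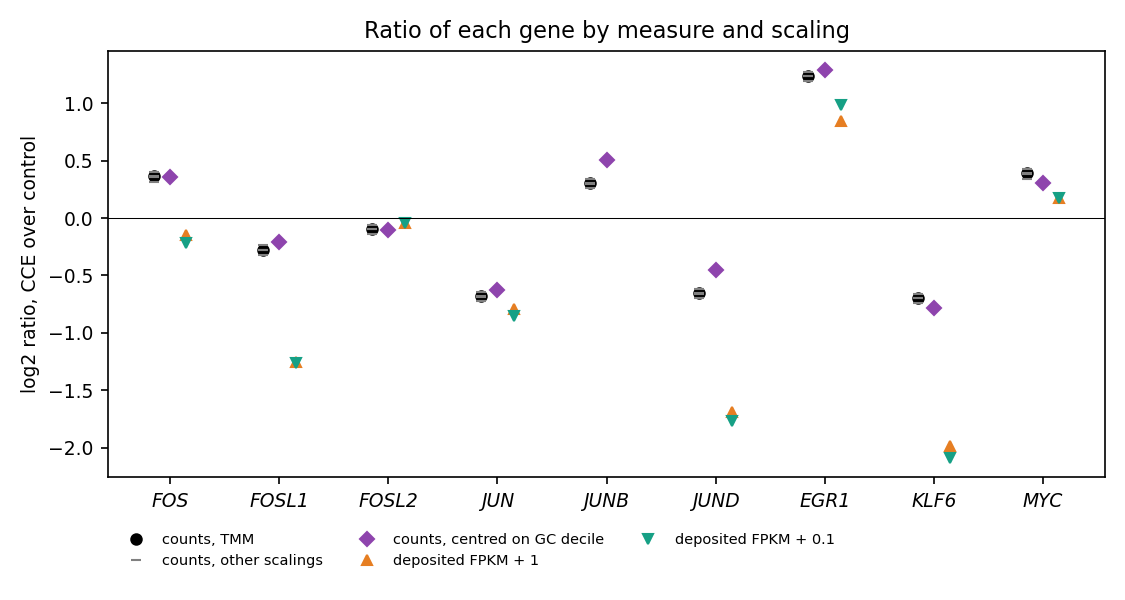
Log2 ratio, CCE over control, of the 9 measured genes from counts under 5 library scalings (black and grey), centred on the transcript GC decile (purple), and from the authors' FPKM with a pseudocount of 1 or 0.1 (triangles; JUNB has none). EGR1 and MYC stay above 0 and FOSL1, FOSL2, JUN, JUND and KLF6 below 0 throughout, FOS lies below 0 by FPKM, and FOSL1, JUND and KLF6 lie much lower by FPKM than by counts.

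The authors' FPKM values set some members further apart. Over all genes these values summed to 2.702e+05 in the CCE and 3.759e+05 in the control library. The FPKM ratios were not rescaled for that difference, so their size cannot be compared directly with the ratios of scaled counts. FPKM was 79.1 in the CCE and 189.7 in the control library for FOSL1, 11.1 and 37.96 for JUND, 8.68 and 37.3 for KLF6, and 8.71 and 15.9 for JUN. On the log2(FPKM + 1) scale these differences were -1.25, -1.69, -1.98 and -0.80. FOSL2 had 9.83 FPKM in the CCE and 10.1 FPKM in the control library. FOS had 1.84 and 2.16 FPKM, below equality where its counts were above it. JUNB was listed at 0 FPKM in both libraries despite 1367 and 174 counts. By FPKM + 1, which has no counting interval, a difference of 1.5-fold or more was found upward in 21.2% and downward in 24.1% of measured genes. Genes at 0 FPKM in both libraries are included there. By counts, whatever the interval, these shares were 14.6% and 13.2%.

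Fast mRNA decay through AU-rich elements is a known trait of some of these genes, FOS among them. Genes of proteins that act on such elements belong to the listed neighbours below. In the 3′ untranslated region of the canonical transcript, FOS held 5 ATTTA motifs, KLF6 6, FOSL2 9, JUN and FOSB 3 each, JUNB 2, and FOSL1, JUND and EGR1 1 each. The median of measured genes with such a region was 2. The longer element TTATTTAT was found in FOS, FOSL2 and KLF6, and in 17.8% of those 11551 genes. Genes with that element had a median log2 ratio of 0.12 and genes without it 0.04. The sites are shown for these 3 genes, element in capitals, GRCh37, FOS and FOSL2 on the plus and KLF6 on the minus strand.
FOS, chr14:75748762-75748791: gtgtttttaatTTATTTATtaagatggatt
FOSL2, chr2:28639221-28639250: catttattttaTTATTTATtttaaatgttt
KLF6, chr10:3820533-3820562: ctatgtttctcTTATTTATgccttgaggac
The log2 ratios of these 3 genes were 0.36, -0.09 and -0.70, with no common direction.

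Around the members, 11 lists of related genes were read the same way, beside 12.1% higher and 11.3% lower by 1.5-fold among all measured genes. Among 13 measured partner genes of AP-1 from the bZIP class, 1 was higher and 1 lower, with a median log2 ratio of 0.17 (-0.02 by FPKM + 1). JDP2, a repressor that dimerizes with JUN proteins, was 0.379-fold (0.302 to 0.478; 265 CCE and 110 control counts), and BATF, a partner of JUN in lymphoid cells, 1.90-fold higher (1.21 to 3.17; 242 and 20 counts). On the log2(FPKM + 1) scale JDP2 differed by only -0.02 and BATF by 0.18. The most abundant, MAFG and CREM, stood at 1.34 (1.25 to 1.44) and 1.45 (1.29 to 1.63), and both were below equality by FPKM.

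Other immediate early genes went both ways. Of 29 measured genes 3 were higher and 5 lower, with a median of -0.06. The EGR paralogs were below the filter, with 20 CCE and 6 control counts for EGR2, 7 and 1 for EGR3 and 4 and 3 for EGR4. KLF2 was 0.468-fold (0.328 to 0.681), the kinase gene SGK1 0.501-fold (0.385 to 0.659, higher by FPKM) and the matricellular gene CCN2 0.596-fold (0.551 to 0.644). ERRFI1, which encodes an inhibitor of the EGF receptor, was 1.75-fold higher (1.65 to 1.85), with FPKM lower. The most abundant, IER3 and CCN1, stood at 0.843 (0.822 to 0.865) and 0.880 (0.857 to 0.903).

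Among 10 genes of SRF, its ternary complex partners and EGR cofactors, 1 was higher and 1 lower (median 0.18, and -0.35 by FPKM). The 2 were the EGR1 corepressor genes: NAB2, itself a known target of EGR proteins, was 1.56-fold higher (1.27 to 1.94, lower by FPKM), and NAB1 was 0.641-fold (0.572 to 0.719). SRF stood at 1.06 (0.966 to 1.16) and ELK3 at 0.793 (0.744 to 0.846). Of 16 measured KLF and SP genes 1 was higher and 3 lower (median -0.18). Besides KLF2, KLF13 was 0.565-fold (0.449 to 0.717) and KLF12 0.612-fold (0.462 to 0.820, higher by FPKM). KLF15 had 87 CCE and 6 control counts, 2.28-fold with a wide interval of 1.01 to 6.39, and a log2(FPKM + 1) difference of 0. The abundant KLF10 and SP3 stood at 1.44 (1.28 to 1.63) and 1.04 (0.938 to 1.14).

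Around MYC, 3 of 19 measured network and turnover genes were higher and 0 lower, with a median of 0.03. The 3 were MXI1 at 1.83-fold (1.56 to 2.17), MXD1 at 1.65-fold (1.29 to 2.14) and MGA at 1.60-fold (1.40 to 1.84), each also higher by FPKM and each the gene of a MAX partner known to oppose MYC. Other genes of such partners were not called at 1.5-fold: MXD3 stood at 0.839 (0.792 to 0.889), MNT at 0.803 (0.671 to 0.966) and MXD4 at 1.04 (0.916 to 1.18). On the log2(FPKM + 1) scale MXD3 and MNT were much lower, at -5.05 and -2.08, and MXD4 stood at 0.47. The ubiquitin ligase gene HUWE1, with MXD3 the most abundant, stood at 0.904 (0.868 to 0.942, higher by FPKM). MYCN had 0 counts in both libraries. Of 29 measured MYC targets 3 were higher and 0 lower, with a median of 0.04 and 15 ratios above 0 and 14 below. The 3 higher were PPAN (2.99-fold, 1.41 to 7.58), POLR1B (1.71-fold, 1.52 to 1.92) and the nucleolin gene NCL (1.60-fold, 1.55 to 1.66), all lower by FPKM. The abundant NPM1 and LDHA stood at 0.829 (0.807 to 0.852) and 0.717 (0.698 to 0.736).

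Of 18 measured AP-1 targets 8 were lower by 1.5-fold or more and 1 was higher, with a median of -0.30 (-0.91 by FPKM) and 12 ratios below 0. The cytokine genes CXCL8 and IL6, which NF-kB also controls, were 0.250-fold (0.227 to 0.275) and 0.323-fold (0.301 to 0.347), and the urokinase gene PLAU 0.477-fold (0.454 to 0.502). EREG, the EGF receptor ligand epiregulin, went the other way with 1567 CCE and 70 control counts, 3.52-fold higher (2.77 to 4.54). HMGA1, the most abundant, stood at 0.919 (0.899 to 0.940).

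The kinase lists above AP-1 went both ways. In the RAS-ERK list 1 of 16 was higher and 2 lower (median -0.09): SOS1 at 1.61-fold (1.39 to 1.87), RPS6KA1 at 0.623-fold (0.519 to 0.751, higher by FPKM) and HRAS at 0.653-fold (0.601 to 0.711). EGFR and MAP2K2, the most abundant, stood at 0.873 (0.836 to 0.912) and 0.679 (0.636 to 0.724). In the JNK and p38 list 2 of 10 were higher and 1 lower (median -0.25): the kinase genes MAP2K4 at 1.67-fold (1.47 to 1.89) and MAP3K7 at 1.57-fold (1.35 to 1.83), and MAP2K3 at 0.659-fold (0.600 to 0.725). MAPK14 and MAPKAPK2 stood at 0.924 (0.872 to 0.978) and 0.779 (0.728 to 0.833).

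With ERK activity itself not measured, 2 of 19 measured ERK feedback genes were higher and 5 lower (median -0.14). They included DUSP8 at 0.354-fold (0.173 to 0.767; 27 CCE and 12 control counts), SPRY1 at 0.531-fold (0.444 to 0.637) and ETV4 at 0.554-fold (0.494 to 0.623). ERRFI1 and IER3, given above, and PHLDA1 at 0.748 (0.719 to 0.778) also belong here. Of 11 genes of AU-rich mRNA decay 2 were higher and 2 lower (median -0.11): the deadenylase gene PARN at 1.73-fold (1.42 to 2.12) and ZFP36, which encodes the decay factor tristetraprolin, at 1.58-fold (1.18 to 2.15), against ZFP36L2 at 0.490-fold (0.429 to 0.560) and HNRNPD at 0.600-fold (0.571 to 0.631). KHSRP stood at 0.779 (0.732 to 0.830).

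**Figure D5:**
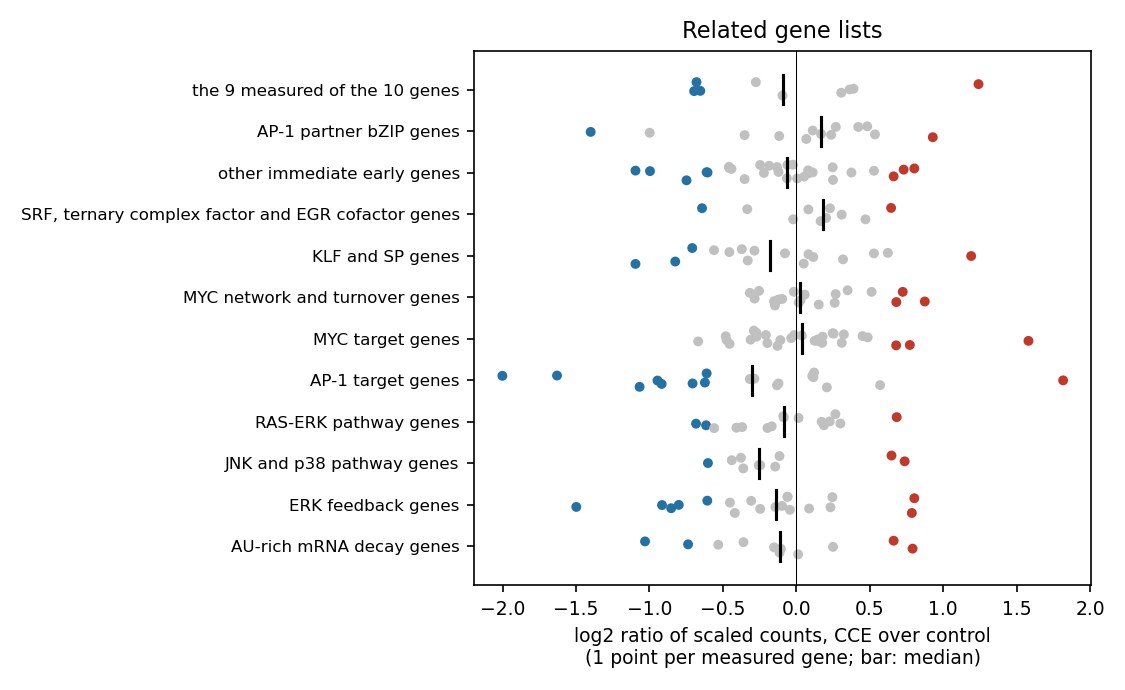
Count-based log2 ratio (CCE over control) of the measured genes in each list (points; red higher, blue lower by 1.5-fold or more with an interval excluding 0; vertical position within a row is random) and the median of the list (bar). The AP-1 target list has the most blue points, 8 of 18, and the lists around MYC have 3 red points each and no blue one.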

How the data were processed

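The authors deposited raw counts per Ensembl gene and FPKM values for 2 libraries; the FPKM table repeats gene IDs, and its rows were summed per gene. Per the submitters' processing notes, HISAT2, hg19 and GRCh37 were used; the sources name neither the counting program and its strand setting nor the FPKM program. The 5 count rows that name no gene (66.8% of CCE and 62.9% of control records) were left out. Symbols, coordinates and exon lengths came from GENCODE release 44 on GRCh37. Counts were scaled by TMM (edgeR 4.0.16, R 4.3.3). Intervals were exact (scipy 1.17.1, Python 3.11.15), and their code was run on simulated Poisson counts. Such counts follow the model the intervals assume and hold no variation between cultures. The run therefore cannot show whether the intervals cover that variation. Reads were not counted by molecule, so the intervals and the floor of 3 counts hold counting error alone. Named genes were all 10 members and, per list of related genes, up to 4 called at least 1.5-fold with the largest ratios and the 2 most abundant; the nearest 3 genes were given for the highest and lowest measured member. Other genes were chosen after their values were seen. The values of 1 gene that this rule names are not reported here. The members and lists were chosen with earlier results of these data known. Alternatives were scaling by total counts, by upper quartiles or with DESeq2 1.42.0, totals without mitochondrial genes, FPKM with a pseudocount of 1 or 0.1, other count filters, leaving out overlapping members and, added after seeing the data, centring on GC deciles and FPKM ratios between family members.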

Additional observations from a re-analysis of the deposited data

How the results depend on the processing

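Under the 4 other count scalings, the ratio of each of the 9 measured members stayed within its counting interval, and 1 member was called at 2-fold and 4 at 1.5-fold. Calls at 1.5-fold numbered 3 when centred on GC deciles, where JUND, at -0.45, was no longer called, and 5 by FPKM at either pseudocount. At 1.5-fold, no share of all measured genes was computed for the centred ratios or for FPKM + 0.1. Calls at 2-fold numbered 3 by FPKM at either pseudocount (FOSL1, JUND and KLF6, lower), with no share of all measured genes computed for them. EGR1 at 0.85 and 0.99 was then not among them, and it is the pseudocount that brings it under 2-fold. The median log2 ratio of the members was -0.47 and -0.54 by FPKM with a pseudocount of 1 and 0.1. By FPKM + 1 the median of all measured genes was 0, and -0.07 without those at 0 FPKM in both libraries. By counts the member median was 0.11 with no count filter, where FOSB enters. It was -0.46 without FOSB, FOSL2, JUNB and MYC, which overlap other genes. The cause of the FPKM difference was not tested. Of the 4 pairs within families whose interval excluded 1, FOSL2 to FOSL1, at 1.08-fold, was the one whose interval held 1 when centred on GC deciles. The control library limits precision: FOS and FOSB rest on 17 and 1 control counts. No paired analysis was possible because each group has 1 library, and for the same reason no library could be left out.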

Other observations

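The deposited FPKM tables give several rows per gene, which carry no transcript name. FOSL1 has 5 rows, and 1 of them held 53.3 FPKM in the CCE and 157.0 FPKM in the control library, while the next held 14.5 and 19.1. MYC had 2 main rows, at 45.0 FPKM in the CCE and 43.8 FPKM in the control library, and at 17.6 and 10.9. For KLF6 the main row held 6.99 FPKM in the CCE and 33.5 FPKM in the control library. FOSB was listed above 0 in 2 of 12 rows in the CCE library and at 0 in all of them in the control library.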
